A study of Mus musculus with 12 samples.

Results

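The 10 genes described here are markers of astrocytes: Gfap, Aqp4, Slc1a2, Slc1a3, Glul, Gja1, Aldh1l1, Aldoc, S100b and Sox9. They were chosen by name and not by a cutoff on measured values, but with earlier results of these data known. Every probe of the array whose RefSeq transcript belongs to 1 of these genes was used. The markers account for 10 of 20887 named genes with a probe on the array, and for 15 of its 55681 non-control probes, with 3 probes each for Gfap and Slc1a2, 2 for Aqp4 and 1 for each other gene. All 15 probes passed the filter on dim signals, were well above background in both channels of each of the 12 arrays, and had no saturated spot.

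RNA came from neurospheres, which are floating clusters of neural progenitor cells, grown from the telencephalon of C57BL/6 mouse embryos on day 13. After 5 days in suspension with EGF and FGF2 the spheres were plated without these growth factors, and RNA was taken on day 7 of differentiation. WT neurospheres came from wild-type embryos, and APP_WT neurospheres from APPswe/PS1dE9 embryos, which carry transgenes for a mutant mouse/human hybrid of the amyloid precursor protein and for a mutant human presenilin, directed to neurons of the central nervous system. Both were untreated. BK_APP neurospheres carried the same transgenes and received 1 µM bradykinin, the peptide agonist of the kinin B2 receptor, on days 0, 3 and 6, and HOE_APP neurospheres carried them too and received 1 µM HOE-140, a peptide antagonist of that receptor, on the same days. The 12 two-color arrays compared APP_WT with WT, BK_APP with APP_WT and HOE_APP with APP_WT on 4 arrays each, from 4 biological replicates, with the dyes Cy3 and Cy5 exchanged between replicates 1 and 2 and replicates 3 and 4. For HOE_APP the 2 channel labels of an array give 1 and the same treatment, and the direction of this comparison, which follows the sample titles and the dye order used for bradykinin, is only likely. The APP_WT versus WT arrays lay on 1 slide and the other 8 arrays on a second slide.

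Astrocytes take up transmitter and potassium around synapses, exchange water and ions at blood vessels and are coupled to each other by gap junctions. In the developing telencephalon they arise late from radial glia, with which they share several of these genes, so that none of the 10 is unique to mature astrocytes in a culture of progenitors. GFAP, the intermediate filament protein used to stain astrocytes, also increases when astrocytes become reactive. RNA was taken from whole cultures, and more astrocytes or more of these transcripts per astrocyte cannot be told apart in such samples.

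The start regions of the genes show which letters of glial regulators lie next to them. Those of Gfap, Slc1a3 and S100b, which were called higher in APP_WT, and of Glul, which was not, are printed. Regions from RefSeq were used for 8 of the 10 genes, all but Aqp4 and Sox9 (build GRCm38.p6, from 250 bases before to 50 after the start, 5′ to 3′ along the gene's strand). Capitals mark TTCNNNGAA, the core letters bound by STAT factors, and TTGGC or its reverse complement GCCAA, letters bound by NFI factors. The regions are chr11:102897151-102897450 on the minus strand for Gfap, chr15:8710758-8711057 on the minus strand for Slc1a3, chr10:76253586-76253885 on the plus strand for S100b and chr1:153899679-153899978 on the plus strand for Glul.
Gfap: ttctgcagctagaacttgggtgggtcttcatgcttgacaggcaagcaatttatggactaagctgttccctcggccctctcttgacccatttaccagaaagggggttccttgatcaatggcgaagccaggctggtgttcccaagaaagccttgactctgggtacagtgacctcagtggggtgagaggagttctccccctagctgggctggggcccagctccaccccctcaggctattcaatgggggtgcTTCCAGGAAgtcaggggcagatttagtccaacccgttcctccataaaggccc
Slc1a3: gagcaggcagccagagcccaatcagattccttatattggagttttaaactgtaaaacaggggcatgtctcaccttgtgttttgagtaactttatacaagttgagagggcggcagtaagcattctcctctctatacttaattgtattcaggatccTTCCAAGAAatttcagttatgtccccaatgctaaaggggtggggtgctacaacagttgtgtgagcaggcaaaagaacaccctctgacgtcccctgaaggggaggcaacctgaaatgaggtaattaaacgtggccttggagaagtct
S100b: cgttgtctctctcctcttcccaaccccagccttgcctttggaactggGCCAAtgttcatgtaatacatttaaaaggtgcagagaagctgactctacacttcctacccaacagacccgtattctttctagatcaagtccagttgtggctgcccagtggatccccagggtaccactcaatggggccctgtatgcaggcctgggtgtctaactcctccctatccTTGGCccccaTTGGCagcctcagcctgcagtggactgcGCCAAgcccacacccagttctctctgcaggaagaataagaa
Glul: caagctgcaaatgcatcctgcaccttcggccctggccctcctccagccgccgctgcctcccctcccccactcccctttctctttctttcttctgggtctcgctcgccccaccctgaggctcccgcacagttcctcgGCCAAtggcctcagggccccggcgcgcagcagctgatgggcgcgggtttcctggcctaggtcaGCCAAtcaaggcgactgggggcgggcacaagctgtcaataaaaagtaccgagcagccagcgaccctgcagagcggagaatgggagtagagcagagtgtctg
TTCNNNGAA was found 1 time in the Gfap region, from base 249, and 1 time in that of Slc1a3, from base 155. It was also found 2 times in the second of the 2 regions listed for Aldoc, and in 8.30% of 32851 regions of the same length. The regions of Slc1a2, Gja1 and S100b, also called higher, held no such match, and neither did those of Aldh1l1 and Glul. TTGGC, read on both strands, was found 4 times in the S100b region, 2 times in that of Glul, 1 time in that of Slc1a2 and 1 time in the first of Aldoc, against 46.7% of all regions. Where it stands as GCCAAT it overlaps CCAAT, which 37.4% of all regions hold. Such matches describe these windows and do not show that a factor binds there.

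APP_WT neurospheres had more transcript of most of the astrocyte markers than WT neurospheres. Each gene is represented by its brightest probe unless another probe is named. By these probes the largest differences were those of Aqp4, the water channel of astrocyte end feet, and Gfap, which were 1.66-fold and 1.61-fold higher, followed by the glutamate transporter genes Slc1a2 and Slc1a3, at 1.37-fold and 1.35-fold. The second Gfap probe showed a larger difference, at 2.23-fold. With loess normalization within each array, 7 of the 10 genes passed the test with a higher level in APP_WT and 0 with a lower level (limma, adjusted p below 0.05 over 29361 expressed probes). Of all expressed probes 18.5% were called, 11.6% higher and 7.00% lower. The median log2 fold change of the 10 genes was 0.28, and that of all expressed probes 0.004. Centering each array on its median instead of fitting a loess curve left 3 genes called higher, Gfap, Aqp4 and Slc1a2, and 1 called lower, Glul. It moved the split over all expressed probes to 7.27% higher and 12.7% lower, so that 36.4% of all calls were higher in place of 62.3%.

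Gfap had log2 ratios of APP_WT over WT of 0.80, 0.94, 0.56 and 0.45 in replicates 1 to 4. All 4 arrays were above 0, and the 4 APP_WT intensities, from 14.7 to 15.2 on the log2 scale, lay above the 4 WT intensities, from 14.1 to 14.5. The log2 fold change was 0.69 ± 0.07 (SE, n = 4; limma, adjusted p = 0.000109), with a 95% interval from 0.53 to 0.85. The second probe, made for another transcript of the gene, had ratios of 1.14, 1.70, 1.15 and 0.63, and the third 0.40, 0.63, 0.37 and 0.28. Both were called as well, at 1.16 ± 0.14 and 0.42 ± 0.07 (limma, adjusted p = 0.000226 and 0.00242). The second probe thus showed a larger ratio than the first on each of the 4 arrays, by 0.18 to 0.75, and the third a smaller one on each, by 0.17 to 0.41. The size of the Gfap difference therefore depended on the probe, while its direction did not.

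Aqp4 had log2 ratios of 0.62, 0.91, 0.51 and 0.88. The APP_WT intensities, from 13.0 to 13.3, did not overlap with the WT intensities, from 12.2 to 12.7. The log2 fold change was 0.73 ± 0.08 (limma, adjusted p = 8.74e-05), and that of the second probe 0.74 ± 0.06 (limma, adjusted p = 1.29e-05). The means of the 2 probes differed by 0.01, but on single arrays they differed by up to 0.44, with the second probe lower in replicates 1 and 2 and higher in replicates 3 and 4. The SD of the 4 ratios of the second probe was 0.29, and its SE leaves out the shift between dye orientations. Gfap and Aqp4 kept their call under each of the 18 alternative settings tried, with Gfap between 0.49 and 0.72 and Aqp4 between 0.56 and 0.82.

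Slc1a2 encodes GLT-1, the glutamate transporter that takes up most glutamate in the adult forebrain, and Slc1a3 encodes GLAST, the transporter of radial glia and immature astrocytes. Slc1a3 had log2 ratios of 0.31, 0.34, 0.48 and 0.61, with all 4 APP_WT intensities above those of WT, and a log2 fold change of 0.43 ± 0.05 (limma, adjusted p = 0.00012). With the arrays centered on their medians it was 0.25 ± 0.10 (limma, adjusted p = 0.0795). Slc1a2 had log2 ratios of 0.03, 0.10, 1.17 and 0.55, and its APP_WT and WT intensities overlapped. The 2 arrays with APP_WT in Cy3 had a mean ratio of 0.06, and the 2 with APP_WT in Cy5 a mean of 0.86. Its log2 fold change of 0.46 ± 0.08 passed the test (limma, adjusted p = 0.00298) in the model with a coefficient for the dye and did not without that coefficient. The coefficient also takes up the difference between replicates 1 and 2 and replicates 3 and 4, which the SE therefore leaves out. The SD of the 4 ratios was 0.53. Leaving out 1 array gave values from 0.30, without replicate 3, to 0.62, without replicate 4, all past the threshold. The other 2 Slc1a2 probes, both for a second transcript, gave 0.09 ± 0.08 and 0.14 ± 0.07 and were not called (limma, adjusted p = 0.440 and 0.205). The call of Slc1a2 thus rested on 1 of its 3 probes and mostly on replicates 3 and 4, which shared 1 dye orientation.

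Glul encodes glutamine synthetase, which turns the glutamate taken up into glutamine. It was the one marker with a mean below 0, with ratios of -0.24, -0.22, -0.04 and 0.05 and a log2 fold change of -0.11 ± 0.05 (limma, adjusted p = 0.148). With the arrays centered on their medians it was -0.29 ± 0.09 (limma, adjusted p = 0.0355). Its WT intensities, from 13.1 to 13.3, overlapped with those of APP_WT, from 13.1 to 13.2. A list of glutamate and glutamine handling, which also holds the potassium channel gene Kcnj10, had 11 other expressed genes. Of these 3 were called higher and 0 lower, and with the arrays centered on their medians 2 higher and 1 lower. The 3 called with loess were Kcnj10, the inward rectifier potassium channel of astrocytes, at 0.57, the amino acid transporter gene Slc38a1 at 0.41 and Glud1, for glutamate dehydrogenase, at 0.15 (limma, adjusted p = 0.024, 0.0015 and 0.0411). Slc1a3 was thus called higher and Glul was not called, a difference between the 2 genes that was not tested.

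Gja1 encodes connexin 43, the main gap junction protein of astrocytes. Its log2 ratios were 0.38, 0.25, 0.19 and 0.21, the APP_WT and WT intensities did not overlap, and the log2 fold change was 0.26 ± 0.05 (limma, adjusted p = 0.00264). Aldoc encodes the brain form of the glycolytic enzyme aldolase. Its ratios were 0.11, 0.10, 0.57 and 0.42, and the fold change of 0.30 ± 0.05 was called (limma, adjusted p = 0.00171), also without overlap of the intensities. Like those of Slc1a2, the Aldoc ratios were higher with APP_WT in Cy5, at a mean of 0.50, than in Cy3, at 0.11. The SD of the 4 Aldoc ratios was 0.23, and the SE leaves out this shift between orientations. S100b, for a calcium-binding protein, had ratios of 0.12, 0.33, 0.10 and 0.38 and a fold change of 0.23 ± 0.07 close to the threshold (limma, adjusted p = 0.0445), which it missed without replicate 2, at 0.18, or without replicate 4, at 0.16. None of these 3 genes was called with the arrays centered on their medians, where Gja1 was at 0.11, Aldoc at 0.09 and S100b at 0.08.

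The remaining 2 markers missed the threshold by little. Aldh1l1, for a folate enzyme found in nearly all astrocytes, had ratios of 0.05, 0.18, 0.32 and 0.24 and a log2 fold change of 0.20 ± 0.06 (limma, adjusted p = 0.0539). Sox9, for a transcription factor that starts the switch from neuron to glia production, had ratios of 0.12, 0.16, 0.11 and 0.18 and a fold change of 0.14 ± 0.05 (limma, adjusted p = 0.0522). All 4 arrays were above 0 for both, with overlapping intensities. With the arrays centered on their medians Aldh1l1 was at 0.02 and Sox9 at -0.01. With the planned replicate block neither was called (limma, adjusted p = 0.0839 and 0.109). A block that entered the APP_WT versus WT arrays with the opposite sign was added after seeing the data. With it both were called (limma, adjusted p = 0.00724 and 0.0260), as were 8265 of all expressed probes, against 5446 in the main model.

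**Figure D1:**
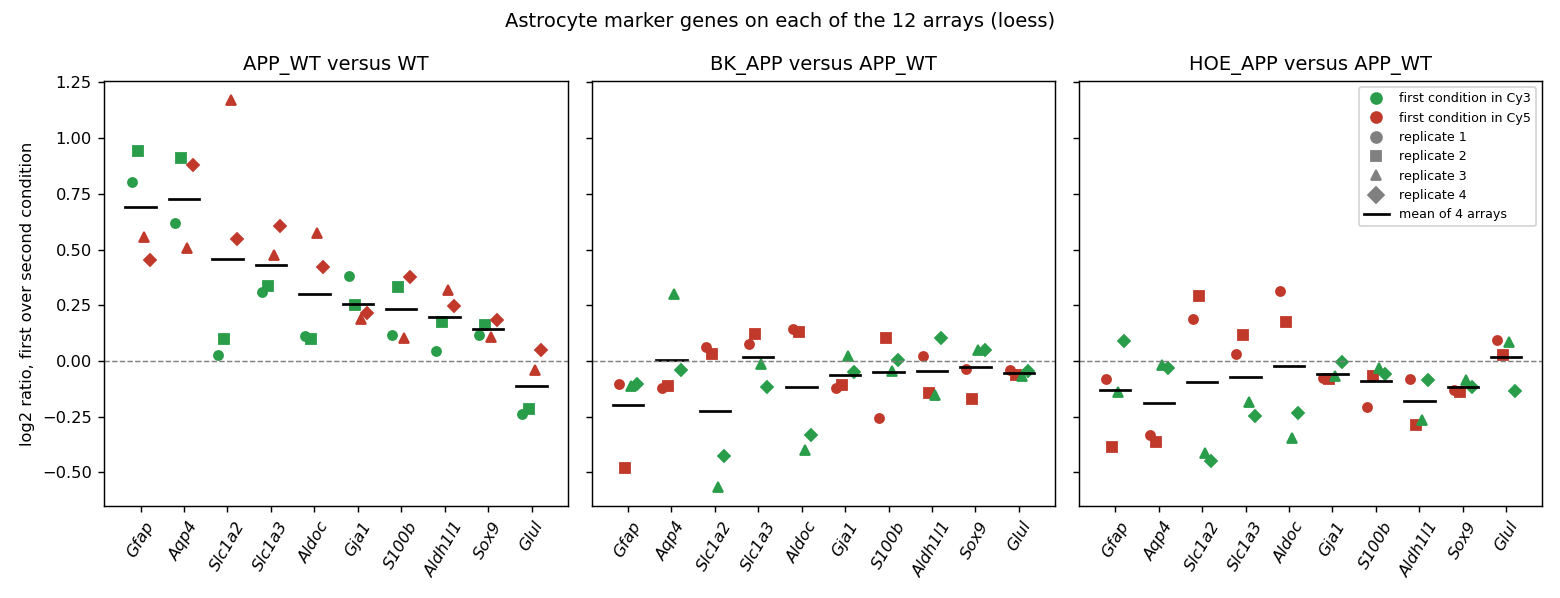
Log2 ratio of each astrocyte marker (vertical axis) on each of the 12 arrays after loess normalization, for the 3 comparisons; symbols give the replicate, colors the dye of the first-named condition and bars the mean of 4 arrays. Gfap and Aqp4 lay above 0.4 on each APP_WT versus WT array. The Slc1a2 and Aldoc points separated by dye, and with it by replicate pair, in all 3 comparisons.

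Over the 10 genes, 9 had ratios above 0 on all 4 APP_WT versus WT arrays, against 15.1% of expressed probes. In 5 of them, Gfap, Aqp4, Slc1a3, Aldoc and Gja1, all APP_WT intensities were higher than all WT intensities, against 6.72% of expressed probes. The median ratio of the 10 genes was 0.12, 0.21, 0.40 and 0.40 in replicates 1 to 4. The markers are bright, lying between the 65.4th and 99.8th percentile of mean intensity, and the 2 normalizations differed most for bright probes. Over the 10102 expressed probes in the range of the markers' intensities, the median log2 fold change was 0.0009 with loess and -0.15 with median centering, and 12.5% against 4.68% of these probes were called higher. The share called lower was 9.36% and 21.9%. Under both settings Aqp4 had the largest value of the 10, followed by Gfap, Slc1a2 and Slc1a3. SAM with rank products, the tests named in the study's methods, called Gfap, Aqp4 and Slc1a3 at an unadjusted p of 0.05 or lower by both tests, against 9.34% of probes, and with one-sided rank products also Aldoc, against 12.1%.

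**Figure D2:**
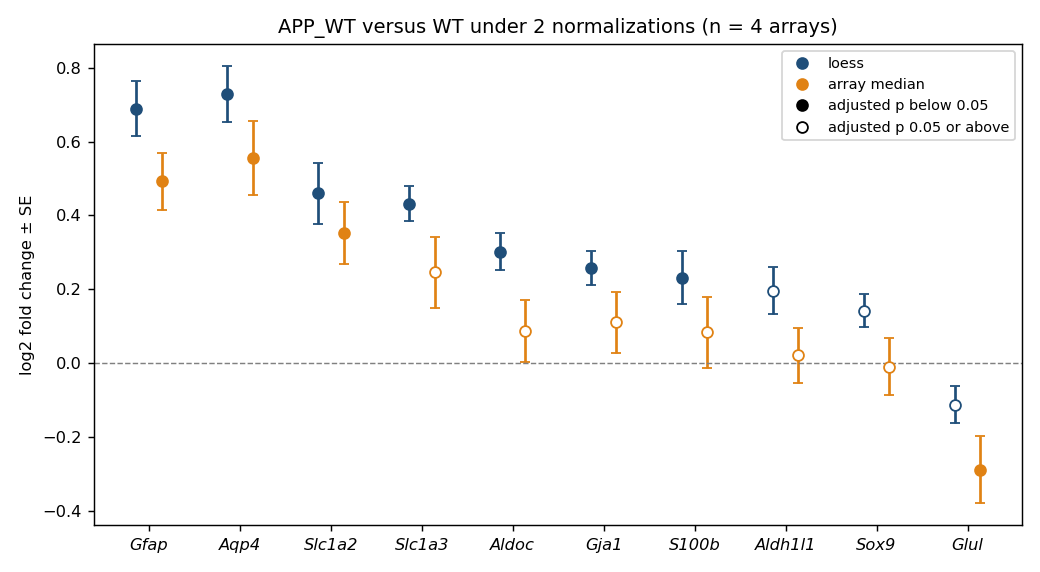
Log2 fold change of APP_WT over WT for each astrocyte marker (vertical axis, with SE, n = 4 arrays) with loess or with array medians; filled points have a limma adjusted p below 0.05. Each marker lay lower with array medians, by 0.11 to 0.22, and Gfap, Aqp4 and Slc1a2 stayed filled.

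In the level of each channel, WT had the lowest mean of the 4 conditions for 8 of the 10 markers, the exceptions being Aldh1l1, lowest in HOE_APP, and Glul, lowest in BK_APP, and the highest mean for 0. With the HOE_APP channels named the other way round, WT had the lowest mean for 9, all but Glul. Gfap had a mean log2 intensity of 14.3 ± 0.15 (SD, n = 4) in WT, 14.7 ± 0.25 in BK_APP, 14.8 ± 0.18 in HOE_APP and between 14.9 and 15.0 in the 3 sets of APP_WT channels. Aqp4 had 12.4 ± 0.24 in WT, 13.1 ± 0.11 in HOE_APP, 13.3 ± 0.19 in BK_APP and 13.1 to 13.3 in APP_WT. Slc1a3 had 13.9 ± 0.10 in WT, 14.3 ± 0.08 in HOE_APP, 14.4 ± 0.06 in BK_APP and 14.4 in each set of APP_WT channels. For these 3 genes the step from WT to the next condition exceeded the SDs. Among the 3 transgenic conditions the steps of Gfap were smaller than the SDs, whereas for Aqp4 and Slc1a3 the step from HOE_APP to the next condition was about as large as the smallest SD. WT was measured on the first slide and the treated cells on the second, with APP_WT on both. The mean APP_WT level on the second slide minus that on the first was -0.08 for Gfap, 0.15 for Aqp4 and 0.03 for Slc1a3. For Glul the 4 means lay between 13.2 and 13.3.

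**Figure D3:**
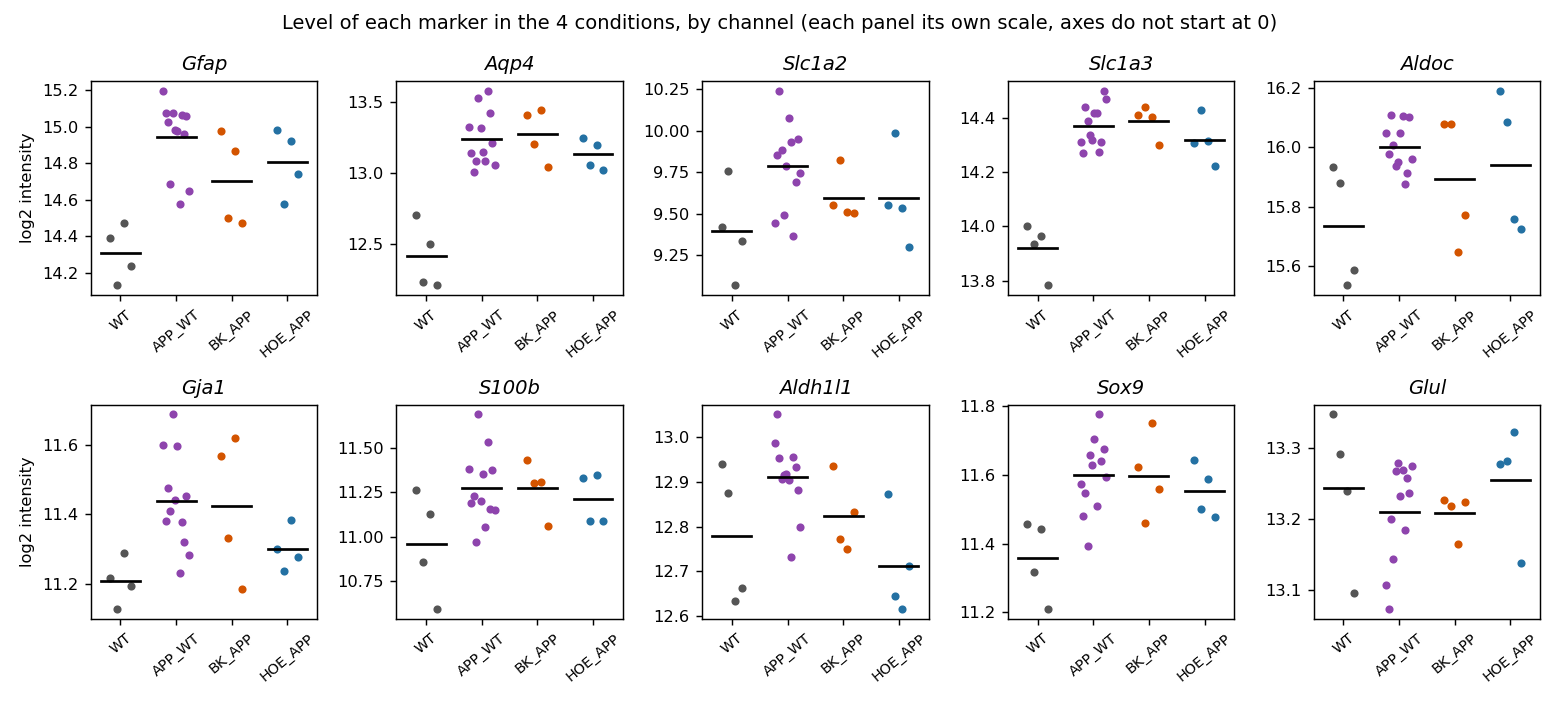
Log2 intensity of each astrocyte marker (vertical axis, 1 scale per panel, not starting at 0) in each channel of the 12 arrays, by condition; bars are means of 4 channels for WT, BK_APP and HOE_APP and of 12 for APP_WT. The WT points of Gfap, Aqp4 and Slc1a3 lay below all points of the other 3 conditions, and the treated points overlapped with those of APP_WT.

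A list of 28 further astrocyte markers, all expressed, had 16 genes called higher in APP_WT and 1 called lower, with a median log2 fold change of 0.31. Vim, for the intermediate filament protein vimentin, was at 0.97, Clu, for the secreted chaperone clusterin, at 0.90, Gjb6, for connexin 30, at 0.79 and Mlc1, for a membrane protein of astrocyte end feet, at 0.75 (limma, adjusted p = 4.31e-06, 3.66e-07, 0.00833 and 3.73e-06). Apoe, for the lipid carrier of astrocytes and microglia, was at 0.59. The gene called lower was Slc6a11, for a GABA transporter, at -0.31. With median centering 11 genes were called higher and 1 lower.

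Genes known to increase in reactive astrocytes had higher median differences than the 10 markers, without a test of this difference. Of 12 genes shared by reactive astrocytes after several kinds of injury, 12 were called higher, with a median of 0.84 and, at the top, the chemokine gene Cxcl10 at 4.50, S1pr3 at 1.37, Serpina3n at 1.26 and Osmr, for the oncostatin M receptor, at 1.23. The set described in astrocytes after endotoxin (A1) had 7 of 11 expressed genes called higher, with Gbp2 at 2.05 and Psmb8 at 1.80. The set described after ischemia (A2) had 8 of 10 called higher and 1 lower, with Tm4sf1 at 1.51 and Cd109 at 1.14. Several genes of these sets are also used by other cell types, among them the interferon-induced Gbp2 and Psmb8.

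Genes of the signaling and transcription that lead progenitors to astrocytes moved in both directions, with 6 of 24 called higher and 3 lower and a median of 0.02. Osmr was at 1.23, Il6st, for its shared signaling chain gp130, at 0.44, and Stat3, which acts downstream of both, at 0.38 (limma, adjusted p = 2.84e-07, 0.000217 and 0.000752). Hes5, a Notch target of progenitors, was at -0.63 and Id2 at -0.53 (limma, adjusted p = 5.95e-05 and 0.000362). Nfia was called higher at 0.27, and Nfib was at -0.25 without a call (limma, adjusted p = 0.025 and 0.109). Of 11 genes of neural stem cells and radial glia, which include Slc1a3 and Vim, 6 were called higher and 2 lower, with Nes at 0.55 and Hopx at 0.54. With median centering the counts were 3 higher and 6 lower for the gliogenic genes, and 4 and 4 for the stem cell genes.

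Markers of other cell types differed in the same comparison. Of 11 expressed microglia markers 10 were called higher, with a median of 1.39, and their median per array lay between 1.33 and 1.47 on all 4 arrays. Ctss was at 2.52, Cx3cr1 at 2.31, Aif1 at 2.21 and C1qa at 2.07, and the defining marker P2ry12 was not expressed. All 7 expressed ependymal markers were called higher, with a median of 1.15 and a range over arrays from 0.88 to 1.40, led by Ccdc153 at 1.84 and Rsph1 at 1.55, and Foxj1, the regulator of motile cilia, was at 1.15. Their part in the differences of the astrocyte markers was not tested. Of 14 neuron markers 3 were called higher and 6 lower, with Nefm at -0.79, Nefl at -0.73 and Dcx at -0.54, while Syt1 was at 0.43 and Tubb3 at -0.13 (limma, adjusted p = 0.172). Of 11 oligodendrocyte lineage markers Cspg4 was called higher, at 0.32, and Olig2 lower, at -0.21. Endothelial markers had 1 of 4 expressed genes called higher, fibroblast and pericyte markers 3 of 6 lower, and proliferation markers 0 of 7 in either direction, with 0 also at an unadjusted p below 0.05.

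**Figure D4:**
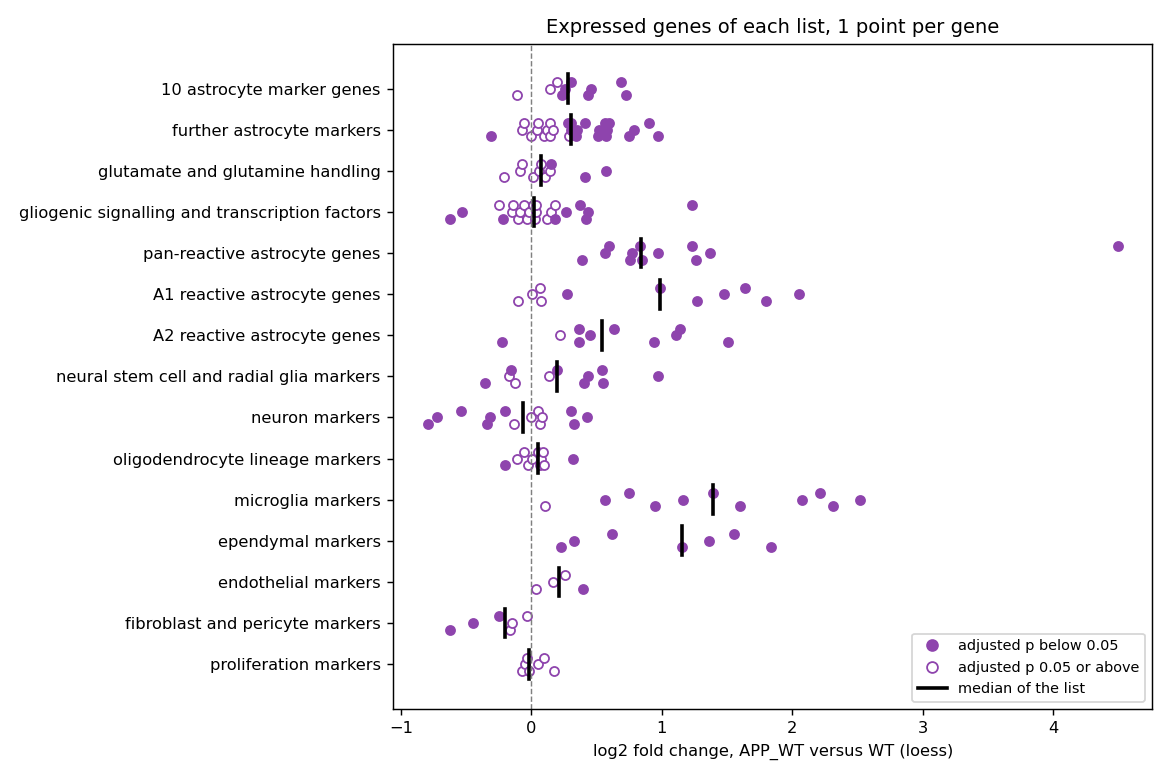
Log2 fold change of APP_WT over WT (horizontal axis, loess) of each expressed gene of the 10 markers and of 14 gene lists; filled points have a limma adjusted p below 0.05 and bars are list medians. The reactive, microglia and ependymal lists had medians from 0.54 to 1.39, above the 0.28 of the 10 astrocyte markers.

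The genes whose ratios over the 12 arrays, after removal of the dye coefficients, followed the median of the 10 markers most closely were Cx3cr1 (r = 0.994), Mpeg1 (r = 0.993), Tgfb3, Clu and Neat1 (each r = 0.992). Cx3cr1 and Mpeg1 are expressed by microglia and macrophages, Tgfb3 encodes a growth factor and Neat1 a nuclear noncoding RNA. Among the markers r was between 0.753 for S100b and 0.963 for Slc1a3, apart from Glul at -0.63. These values describe arrays that fall into an APP_WT versus WT set and 2 treatment sets with a step between them. Cx3cr1 was at 2.31, Mpeg1 at 1.64, Neat1 at 1.11 and Tgfb3 at 0.93 in APP_WT versus WT (limma, adjusted p = 2.14e-08, 5.44e-08, 2.74e-07 and 1.51e-06).

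Whether bradykinin changed the markers in APP neurospheres was asked with the BK_APP arrays. No marker passed the test, with adjusted p-values from 0.967 to 0.998 (limma), and neither did any of the 29361 expressed probes (0%). At an unadjusted p below 0.05 there were 3 markers, Slc1a2 (limma, unadjusted p = 0.0203), Gfap (0.0218) and Aldoc (0.0402), against 4.47% of all expressed probes. Of the 10 genes 8 had a mean below 0, as had 52.6% of expressed probes, and the median was -0.05. Gfap had log2 ratios of BK_APP over APP_WT of -0.10, -0.48, -0.11 and -0.11, with overlapping intensities and a log2 fold change of -0.20 ± 0.07 (95% interval -0.36 to -0.04). It was -0.10 without replicate 2 and -0.29 without replicate 1. The second Gfap probe had -0.08, -0.03, -0.02 and -0.89, and the third 0.03, -0.19, 0.04 and -0.36. The array farthest from 0 was replicate 2 for the first probe and replicate 4 for the others.

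Slc1a2 had ratios of 0.06, 0.03, -0.57 and -0.43 under bradykinin, and Aldoc 0.14, 0.13, -0.40 and -0.33. In both genes the 2 arrays with BK_APP in Cy5 were above 0 and the 2 with BK_APP in Cy3 below 0, and the means were -0.22 ± 0.08 and -0.12 ± 0.05. These SEs, and the p-values from them, leave out the difference between the 2 orientations. The SDs over the 4 arrays were 0.32 and 0.29. Aqp4 had ratios of -0.12, -0.11, 0.30 and -0.04, with a fold change of 0.01 ± 0.08 and a 95% interval from -0.16 to 0.17. Glul was below 0 on all 4 arrays, at -0.04, -0.06, -0.07 and -0.05, and was the one marker whose BK_APP and APP_WT intensities did not overlap, against 0.234% of expressed probes in this direction, with a fold change of -0.05 ± 0.05. Gja1 was at -0.06, S100b at -0.05, Aldh1l1 at -0.04, Sox9 at -0.03 and Slc1a3 at 0.02. Gfap and Glul were below 0 on all 4 arrays, against 4.62% of expressed probes. SAM with rank products called Gfap by its first probe, against 1.31% of probes with two-sided and 1.84% with one-sided rank products. With the arrays centered on their medians 7 of the 10 genes were above 0, and the median was 0.03.

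HOE-140 likewise gave no call, with adjusted p-values from 0.924 to 0.985 for the markers (limma) and none of the 29361 expressed probes called (0%). At an unadjusted p below 0.05 there were 3 markers, Aldh1l1 (limma, unadjusted p = 0.0157), Sox9 (0.0249) and Aqp4 (0.0323), against 5.03% of all expressed probes. Of the 10 genes 9 had a mean below 0, as had 49.9% of expressed probes, with a median of -0.09. Aqp4 had log2 ratios of HOE_APP over APP_WT of -0.33, -0.37, -0.02 and -0.03, and a fold change of -0.19 ± 0.08 (95% interval -0.36 to -0.02). Its second probe had -0.01, -0.11, -0.49 and -0.50, with -0.28 ± 0.06 (95% interval -0.41 to -0.15; limma, unadjusted p = 0.00069, adjusted p = 0.924). Both probes were below 0 on all 4 arrays, with the 2 lowest arrays in Cy5 for the first and in Cy3 for the second. The SEs, intervals and p-values of both leave out this difference between the orientations. The SDs over the 4 arrays were 0.19 and 0.26. The intensities of HOE_APP and APP_WT overlapped for all 10 genes.

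Aldh1l1 had ratios of -0.08, -0.29, -0.27 and -0.09 and a fold change of -0.18 ± 0.06, and Sox9 had -0.13, -0.14, -0.09 and -0.12 and -0.12 ± 0.05. Gfap had -0.08, -0.38, -0.14 and 0.09, with -0.13 ± 0.07 (95% interval -0.29 to 0.04), -0.05 without replicate 2 and -0.20 without replicate 1. Slc1a2 had 0.19, 0.29, -0.42 and -0.45, and Aldoc 0.32, 0.17, -0.34 and -0.23, again above 0 with the treated cells in Cy5 and below 0 with them in Cy3. Aqp4, Aldh1l1, Sox9, S100b and Gja1 were below 0 on all 4 arrays, 5 of the 10 genes, against 5.00% of expressed probes. SAM with two-sided rank products called none of the 10 by its brightest probe and Aqp4 by its second probe, against 1.66% of probes, and with one-sided rank products it called Aldh1l1, against 2.31%. S100b was at -0.09, Slc1a3 at -0.07, Gja1 at -0.06 and Glul at 0.02. With the arrays centered on their medians 8 of the 10 genes were above 0 and the median was 0.03, so that the sign of most treatment differences followed the normalization. If the HOE_APP channels were labeled the other way round, all signs of this comparison would turn.

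**Figure D5:**
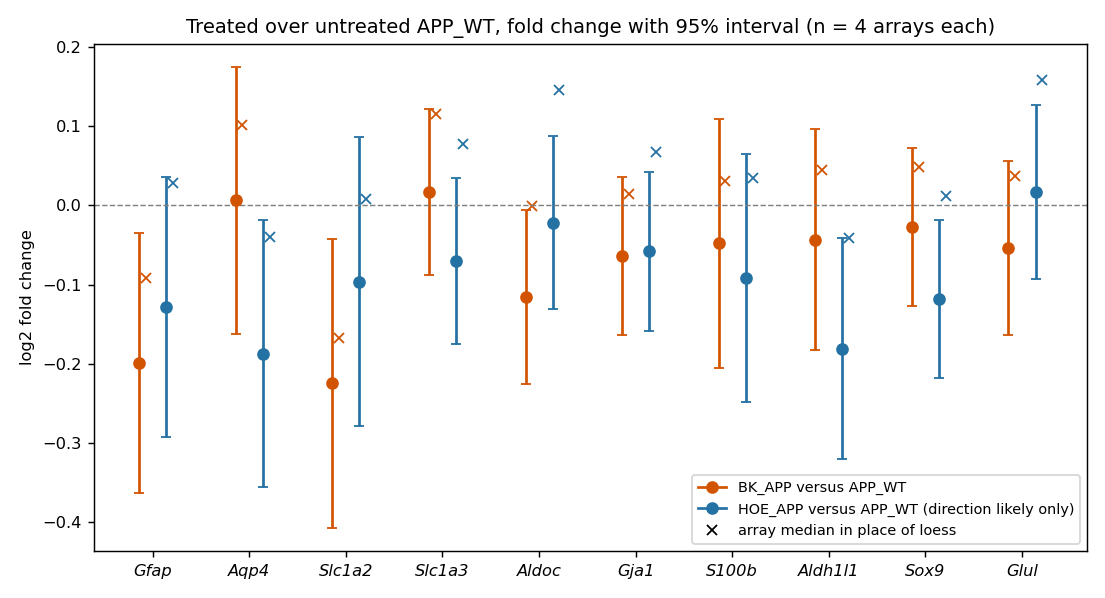
Log2 fold change of BK_APP and of HOE_APP over untreated APP_WT (vertical axis) for each astrocyte marker with its 95% interval (loess, n = 4 arrays each); crosses give the value with array medians. Most intervals included 0, and the crosses lay above the loess values, on the other side of 0 for 5 markers with bradykinin and 7 with HOE-140.

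The difference between the 2 treatments was tested as a contrast in the same model. None of the 29361 probes passed (0%), and no marker had an unadjusted p below 0.05 by its brightest probe, against 2.50% of expressed probes. The largest differences of BK_APP minus HOE_APP were those of Aqp4, at 0.19 (95% interval -0.04 to 0.43), Aldh1l1, at 0.14 (-0.06 to 0.33), and Slc1a2, at -0.13 (-0.39 to 0.13), and the median was 0.02. With the HOE_APP signs turned they were instead those of Gfap, at -0.33, and Slc1a2, at -0.32. In the likely direction the second Aqp4 probe gave 0.25 (0.06 to 0.43; limma, unadjusted p = 0.014, adjusted p = 0.999995). Both treatments were set against untreated APP_WT cells, so that the 2 comparisons share their control and are not independent of each other. BK_APP and HOE_APP arrays of the same replicate number also deviated together. The model behind these intervals and p-values has no term for the replicate and leaves this pairing out. With a replicate block for the BK_APP and HOE_APP arrays only, 0 of the 29361 probes passed as well.

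The dye orientation entered several of these values. Of the 15 probes, 7 read higher with the first-named condition in Cy5 in all 3 comparisons, 3 lower in all 3, and 5 differed between comparisons. The largest such shift was that of Slc1a2, at 0.80, 0.54 and 0.67 in the APP_WT versus WT, BK_APP and HOE_APP comparisons, and Aldoc had 0.39, 0.50 and 0.53. Over all expressed probes, arrays of opposite orientation correlated between 0.24 and 0.46 in the APP_WT versus WT comparison, and between -0.32 and -0.11 with bradykinin and -0.32 and -0.19 with HOE-140.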

How the data were processed

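Total RNA from neurospheres was hybridized to 12 two-color mouse arrays. The deposited scanner files hold Agilent Feature Extraction (version 11.0.1.1 per the file headers) intensity values and the authors' log10 ratio per spot, and the deposited value table holds log2 ratios made by the authors. Control spots (3671 of 62976) were left out. Median signals were corrected with normexp (offset 50) and loess (span 0.3) in limma 3.58.1 under R 4.3.3, turned to first over second condition, and fitted in 1 model that gave each comparison its mean and its dye term (12 arrays, 6 residual degrees of freedom). A probe counted as expressed when well above background on at least 3 of 4 arrays of a comparison in 1 channel (29361 of 55681), and p-values were adjusted over these (Benjamini-Hochberg, threshold 0.05). The dye term takes up the difference between the dye orientations, and with it that between the replicate pairs. SEs, intervals and limma p-values of this model therefore leave that difference out. Channel levels were scaled with Aquantile. The model was tested on simulated data, with 50 probes for each size of change in APP_WT versus WT. It called 14% of probes with a log2 change of 0.25, 64% with 0.5, 72% with -0.5 and 98% with 1. Those data had 54657 probes, with 50 changed at each size, and a log2 change of 0.25 was mostly missed there. On the measured APP_WT versus WT arrays 5446 of 29361 expressed probes were called. Whether the rates above hold for the measured arrays was not tested. RefSeq transcripts named 27509 of 29150 probes. Median spot signals were 63 to 94.5 in green and 89.5 to 117.5 in red, and 51.2% to 60.3% of probes were well above background; the number of arrays limits the precision. Alternatives were array medians, the scanner's and the deposited ratios, other background and filter settings, and no dye coefficient. Others were each comparison alone, a replicate block, arrays left out, HOE_APP signs turned, and SAM with rank products. The authors name SAM and rank products, and the form used here (two-sided, 100 permutations) is not given by them. A one-sided form of the rank products was added after its two-sided counts had been seen and found lower than counts known from earlier work on these data, and a block for the BK_APP and HOE_APP arrays only and a block with the APP_WT versus WT sign turned were also added after seeing the data. BK_APP and HOE_APP arrays of the same replicate number deviated together (r between 0.515 and 0.675, and each correlated best with its own number), and those of APP_WT versus WT had r between -0.60 and -0.30 with them, with APP_WT first-named there and second-named in the others. Named genes were all members, up to 4 called genes per list with the largest fold change, 11 single defining genes and the 5 most like the members' median. Members and lists were chosen with earlier results of these data known. The study's methods call the 4 replicates biological, and the labels number them.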

Additional observations from a re-analysis of the deposited data

Results flagged for a closer look

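In the BK_APP versus APP_WT comparison 2 Gfap probes had 1 array far from the other 3. For the first probe the gap of replicate 2, at -0.48 against -0.11 to -0.10, was 0.977 of the whole range of 4 arrays. For the second it was replicate 4, at -0.89 against -0.08 to -0.02, with a gap of 0.932 of the range. The 2 probes thus set apart different replicates of the same 4 arrays. In all 45 sets of 4 ratios were checked, and chance flags about 1 in 20.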

How the results depend on the processing

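With array medians in place of loess, 4 markers were called in APP_WT versus WT (median 0.10; Sox9 at -0.0096). In BK_APP the median turned to 0.033, with Aldh1l1 at 0.045, Gja1 at 0.014, S100b at 0.031, Glul at 0.036 and Sox9 at 0.049. In HOE_APP it turned to 0.031, with Gfap at 0.028, Slc1a2 at 0.0082, Slc1a3 at 0.078, Aldoc at 0.14, Gja1 at 0.067, S100b at 0.035 and Sox9 at 0.012. BK_APP minus HOE_APP had a median of -0.028 and S100b at -0.0040. Array medians also gave, in APP_WT versus WT, 1 lower gene of glutamate handling, 3 higher and 6 lower gliogenic genes, 4 lower stem cell genes, 1 higher neuron marker and 2 lower oligodendrocyte markers. With each comparison fitted alone, which uses fewer arrays, 4 markers and 2371 of all probes were called, against 5446. SAM with two-sided rank products called 3 markers in APP_WT versus WT, 1 in BK_APP and 0 in HOE_APP. The one-sided form, added after these counts were seen, called 4, 1 and 1 (Aldoc and, in HOE_APP, Aldh1l1 in addition). With the HOE_APP signs turned the median was 0.094 (Gfap 0.13, Aqp4 0.19, Slc1a2 0.097, Slc1a3 0.071, Aldh1l1 0.18, Aldoc 0.022, Gja1 0.058, S100b 0.092, Glul -0.017, Sox9 0.12), and BK_APP minus HOE_APP had a median of -0.14 (Gfap -0.33, Slc1a2 -0.32, Aqp4 -0.18, Slc1a3 -0.054, Aldh1l1 -0.22, S100b -0.14, Sox9 -0.15). Leaving out 1 array gave 6 to 7 called markers in APP_WT versus WT. It gave ranges across 0 in BK_APP for S100b (-0.14 to 0.043), Sox9 (-0.061 to 0.0060), Aqp4 (-0.080 to 0.092), Slc1a3 (-0.0094 to 0.043) and Aldh1l1 (-0.11 to 0.020), in HOE_APP for Glul (-0.039 to 0.072) and Aldoc (-0.057 to 0.013; median of all markers -0.10 to -0.065), and in BK_APP minus HOE_APP for Gfap (-0.16 to 0.024), S100b (-0.047 to 0.13) and Gja1 (-0.023 to 0.012). The replicate block left 7 markers called in APP_WT versus WT and 0 in each other comparison, and the block for BK_APP and HOE_APP arrays only gave 8 (Aldh1l1 in addition). The block with the APP_WT versus WT sign turned gave 9 (Aldh1l1 and Sox9 in addition) and 8265 of all probes, with 0 markers and 3 probes in HOE_APP. Where a value moved, the cause was not tested. In APP_WT versus WT, 150 of 180 values of single markers kept direction and call over the 18 alternatives, 22 lost the call, 7 gained it and 1 turned sign.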
